A study of Mus musculus with 12 samples.

Results

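Cathepsins are the proteases of the lysosome and endosome, and 9 of their genes were followed here in the gut epithelium of mice after experimental stroke. They were taken by name from the 15855 genes of the count table, as the aspartic cathepsins Ctse and Ctsd, the cysteine cathepsins Ctsb, Ctsl, Ctss, Ctsh, Ctsz and Ctsc, and the serine carboxypeptidase Ctsa. All 9 were present and all 9 passed the filter on low counts, which kept 14462 genes. Ctse was chosen because it differed between the groups in these same samples, so its difference is described without a test. The other 8 were chosen as its relatives.

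RNA was sequenced from EpCAM+ cells sorted from the whole small intestine of C57BL6/J mice 24 h after surgery. According to the methods the animals were young adults, and male unless stated otherwise. In the pMCAO group (n = 5) the right middle cerebral artery was blocked permanently with a filament, which models a stroke with no return of blood flow, and in the sham group (n = 7) the same operation was done without the blockage. Both groups were wild type and had the same anaesthesia, and each sample was labelled as a biological replicate. The question was which epithelial genes differed 24 h after stroke.

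Cathepsins are made as inactive precursors, carried to the lysosome and matured there by the low pH. Most break down proteins that a cell has taken up or no longer needs. Ctse differs from most of the family in its place and tissue range, since it sits mainly in endosomes and other non-lysosomal compartments and is best known from stomach surface cells, the gut epithelium and antigen-presenting cells. Ctsd is its lysosomal relative and is made by nearly all cells.

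The 3 catalytic types can be read from the coding sequence, and the stretch around each active site is shown because it separates Ctse and Ctsd from the 7 relatives of other catalytic types. The sequences are from the GENCODE M21 annotation of GRCm38, 5′ to 3′ on the coding strand, and carry 12 bases on each side of the motif. Capitals mark the codons of the Asp-Thr-Gly motif in the aspartic enzymes. Each aspartic enzyme holds the motif 2 times, and both copies are given.
Ctse copy 1: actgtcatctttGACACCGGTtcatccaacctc
Ctse copy 2: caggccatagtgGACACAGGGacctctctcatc
Ctsd copy 1: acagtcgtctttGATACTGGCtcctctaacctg
Ctsd copy 2: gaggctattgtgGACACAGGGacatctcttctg

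The Ctse copies lay at chr1:131663359-131663391 in exon 4 of 10 and at chr1:131672247-131672279 in exon 8, and began at residues 97 and 282 of 397. Those of Ctsd lay at chr7:142383461-142383493 in exon 3 of 9 and at chr7:142377095-142377127 in exon 7, at residues 97 and 293 of 410. In the cysteine enzymes the capitals mark the codons around the catalytic cysteine, read as Cys-Gly, then Ser or Ala, then Cys and an aromatic residue. In Ctsa they mark the 6 codons around the catalytic serine.
Ctsb: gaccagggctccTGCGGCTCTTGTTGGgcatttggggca
Ctsl: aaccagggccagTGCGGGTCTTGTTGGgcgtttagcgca
Ctss: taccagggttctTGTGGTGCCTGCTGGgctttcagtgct
Ctsh: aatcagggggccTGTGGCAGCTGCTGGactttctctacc
Ctsz: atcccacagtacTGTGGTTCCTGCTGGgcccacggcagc
Ctsc: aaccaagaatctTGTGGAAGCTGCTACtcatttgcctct
Ctsa: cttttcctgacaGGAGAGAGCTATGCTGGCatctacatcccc

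The stretches of Ctsz (chr2:174438181-174438219, exon 2 of 6) and Ctsa (chr2:164835225-164835266, exon 7 of 16) were unbroken in the genome, and those of Ctsb, Ctsl, Ctss, Ctsh and Ctsc each spanned 2 exons. Ctse as a whole (ENSMUSG00000004552) lay on the plus strand at chr1:131638306-131675505 with no exon shared with another annotated gene. Ctsd, Ctsb, Ctsl, Ctsz and Ctsa overlapped an exon of at least 1 other annotated gene. For Ctsb, Ctsz and Ctsa the overlap was on the opposite strand only, and the strand setting of the counting was not stated. Ctsd and Ctsl also met a gene on their own strand, where strand cannot separate the reads. Reads in all such exons thus cannot be assigned to 1 gene with certainty. Near-identical stretches in other genes were searched with 1 transcript of each of the 9 genes. For Ctsh this covered 1617 nt of 4499 nt of exon, so exons outside these transcripts were not searched. In the transcripts used, Ctsl alone held stretches of at least 100 nt that were at least 95% identical to exons of genes elsewhere. The longest was 191 nt in its long transcript.

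Total counts per sample ran from 7418730 to 31925579. Mitochondrial ribosomal RNA took 14.6% to 54.5% of them, and the 9 cathepsins together took 0.011% to 0.0504%. Levels are given as CPM, counts scaled to the size of the library, here by the TMM method, and 3 counts were worth 0.0692 to 0.724 CPM depending on the sample. The first principal component, with 40.5% of the variance, set the 4 libraries numbered 58 to 61 (3 sham, 1 pMCAO) apart from the other 8. The fit carried a library block, taken from earlier work on these data, made of libraries 58 to 61 (block 1), 62 to 65 (block 2), 66 to 68 (block 3) and 72, with sham replicate 7 alone in the last and so adding nothing to the group difference. Epcam stood at a mean of 1500 CPM, against 79.7 CPM for Gzma, the most abundant of the lymphocyte markers listed. All 10 epithelial markers were above 0 in every sample, but so were several markers of immune cells. A bulk sample cannot tell fewer cells of a type from less RNA per cell.

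Ctse was scarce in the sham epithelium and several times higher after stroke. In the 7 sham samples its level was 0.159 CPM at the lowest, 1.98 at the median and 7.72 at the highest. In pMCAO replicates 1 to 5 it was 3.67, 19.8, 10.1, 10.3 and 12 CPM. The groups overlapped through 2 samples, because pMCAO replicate 1 (3.67 CPM) lay below sham replicate 7 (7.72 CPM), and every other pMCAO sample lay above every sham sample.

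The sham mean was 2.60 ± 2.57 CPM (SD, n = 7) and the pMCAO mean 11.2 ± 5.77 CPM (SD, n = 5), a ratio of 4.29. In limma-voom with the library block the log2 fold change of Ctse was 2.33 (SE 0.478), and it ranked 44 among the 14462 genes from the largest increase down. Without the block it was 2.52. These values chose the gene and are given as a description. The next in size among the 9 was Ctsz at 0.44.

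**Figure D1:**
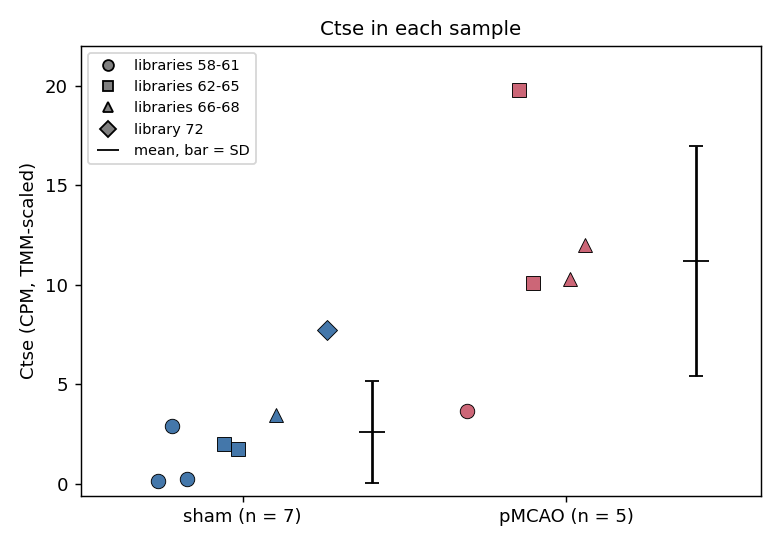
Ctse in each sample. The vertical axis is the TMM-scaled level in CPM, each point is 1 sample, its shape gives the library block, and the bar beside each group is the mean with its SD (sham n = 7, pMCAO n = 5). The single pMCAO sample of libraries 58 to 61 (3.67 CPM) is the lowest of its group, and library 72 (7.72 CPM) is the highest sham sample.

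Raw counts show what these levels rest on. Sham replicates 1 and 3 held 2 and 1 Ctse counts, fewer than the floor of 3. The other sham samples held 14, 16, 30, 135 and 106 counts, for replicates 2, 4, 5, 6 and 7. The pMCAO samples held 43, 847, 436, 129 and 317, for replicates 1 to 5. Counting error was therefore large in 2 sham samples and small in all pMCAO samples.

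Within each block that held both groups, every pMCAO sample was above every sham sample. In block 1 the pMCAO sample had 3.67 CPM against 0.159, 2.90 and 0.241 in the 3 sham samples, a difference of 2.55 on the log2 scale. In block 2 the pair of pMCAO samples had 19.8 and 10.1 CPM against 1.98 and 1.73, a difference of 2.86. In block 3 they had 10.3 and 12 CPM against 3.46, a difference of 1.66. Of all genes tested, 3.11% were likewise higher in pMCAO in each of these blocks, 0.311% were higher with no overlap over all 12 samples, and 1.87% were so in libraries 62 to 72 taken alone, where Ctse was among them. Since the gene was chosen by this contrast, nothing is read from its place in these shares.

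Ctse also differed between blocks. Its mean was 1.74 ± 1.81 CPM (SD, n = 4) in block 1 and 8.38 ± 6.09 CPM (SD, n = 8) in the other libraries, and with the group in the fit block 1 was lower than blocks 2 and 3 by -2.04 on the log2 scale (SE 0.757). Of all genes, 24.8% were lower in block 1 by at least 1. Mitochondrial ribosomal RNA took 14.7% to 54.5% of the counts in sham and 14.6% to 34.8% in pMCAO, and the sham samples with 2 and 1 Ctse counts were at 37% and 54.5%. The part of that share in the Ctse difference was not tested.

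As a share of the counts of all 9 cathepsins, which does not depend on the scaling between samples, Ctse made up on average 0.937% ± 0.891 of the sham counts (SD, n = 7) and 3.72% ± 2.21 of the pMCAO counts (SD, n = 5). The lowest share was 0.0724% in sham replicate 1 (2 of 2764 counts, 95% Wilson interval 0.0198% to 0.263%) and the highest was 7.35% in pMCAO replicate 2 (847 of 11531, 6.88% to 7.84%). The shares met in the middle, with 2.71% in sham replicate 7 (2.24% to 3.27%) and 1.34% in pMCAO replicate 1 (0.996% to 1.80%). These intervals cover counting error only.

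None of the 8 relatives passed the test. A gene was called where limma-voom gave a Benjamini-Hochberg adjusted p no higher than 0.05 and a log2 fold change of 1 or more in size. This held for 0 of the 8, against 0.325% of all 14462 genes tested (0.138% higher and 0.187% lower in pMCAO). At an unadjusted p under 0.05 it picked 1 of the 8, Ctsz, against 12.7% of all genes. Without the block it called 0% of all genes, with 8.43% at an unadjusted p under 0.05. Of the 8, 6 had a log2 fold change above 0, against 51.3% of all genes, and their median was 0.10 beside 0.01 over all genes. With the block, 4.93% of all genes had a log2 fold change of 1 or more.

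Ctsd, the lysosomal aspartic protease closest to Ctse, differed far less between the groups. In sham replicates 1 to 7 it was 30.1, 35.9, 40.8, 41.3, 38.2, 52.9 and 41.8 CPM, and in pMCAO replicates 1 to 5 it was 51.9, 43.2, 37.3, 49.8 and 54.4 CPM. Only pMCAO replicate 5 lay above every sham sample. The log2 fold change was 0.15 (limma-voom adjusted p = 0.75, SE 0.161).

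Ctsz, also called cathepsin X, trims single residues from the carboxyl end of proteins and had the largest difference of the 8. Its sham values of 30.5, 31.9, 26.3, 32.2, 35.2, 29.2 and 36.5 CPM were tightly grouped, and its pMCAO values were 43.3, 33.3, 38.3, 62.3 and 44.5 CPM. Only pMCAO replicate 2 lay within the sham range. The sham mean was 31.7 ± 3.47 CPM (SD, n = 7) and the pMCAO mean 44.3 ± 11 CPM (SD, n = 5). In the fit the log2 fold change was 0.44 (SE 0.179) with a limma-voom p of 0.0251, which became 0.315 after adjustment over all genes. Within blocks 1, 2 and 3 the difference was 0.55, 0.08 and 0.85 on the log2 scale.

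Ctsa, the carboxypeptidase that also protects lysosomal β-galactosidase and neuraminidase, had 29, 17.4, 27, 35.8, 37.9, 53.5 and 35.4 CPM in sham replicates 1 to 7. In pMCAO replicates 1 to 5 it had 33.2, 37.1, 54.4, 57.4 and 67.1 CPM. Here the block mattered: the 4 samples of block 1 (17.4 to 33.2 CPM) lay wholly below the other 8 (35.4 to 67.1 CPM), as did 9.4% of all genes. The log2 fold change was 0.28 with the block (limma-voom adjusted p = 0.527, SE 0.172) and 0.49 without it.

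Ctsb and Ctsl are broad endopeptidases of the lysosome. Ctsb ran from 41.0 to 77.7 CPM in sham, with a median of 53.5, and stood at 51.8, 60.6, 62.2, 77.6 and 69.1 CPM in pMCAO, so that the pMCAO range lay inside the sham range. Its log2 fold change was 0.05 (limma-voom adjusted p = 0.94, SE 0.157). Ctsl ran from 15.2 to 41.0 CPM in sham, with a median of 33.4, and stood at 19.7, 19.6, 26.5, 16.6 and 35.8 CPM in pMCAO. Its log2 fold change was -0.32 (limma-voom adjusted p = 0.67, SE 0.272), and its sign differed between blocks, at -0.44, -0.78 and 0.41.

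Ctss cuts the invariant chain of MHC class II in antigen-presenting cells, and Ctsc activates the granule proteases of lymphocytes and myeloid cells. Ctss was 25.1 to 45.4 CPM in sham and 24.0 to 45.9 CPM in pMCAO, ranges that were almost the same, with a log2 fold change of 0.03 (limma-voom adjusted p = 0.974, SE 0.185). Ctsc was 10.2, 17.2, 14.5, 31.1, 18.6, 59.6 and 50 CPM in sham replicates 1 to 7 and 19.1 to 31.8 CPM in pMCAO. Sham replicates 6 and 7 were above every pMCAO sample, and sham replicates 1, 2, 3 and 5 were below every one. Its log2 fold change was -0.28 (limma-voom adjusted p = 0.675, SE 0.248), and without sham replicate 6 it was 0.24. In block 1 the mean of Ctsc was 15.2 ± 3.85 CPM (SD, n = 4) against 33.5 ± 14.1 CPM (SD, n = 8) in the other libraries.

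Ctsh, an aminopeptidase best known for maturing surfactant protein in the lung, was low throughout. It was 0.558, 1.87, 3.14, 4.82, 4.97, 4.61 and 9.25 CPM in sham replicates 1 to 7 and 5.98, 3.97, 7.06, 6.16 and 3.06 CPM in pMCAO replicates 1 to 5. The log2 fold change was 0.25 (limma-voom adjusted p = 0.858, SE 0.437). Nearly all of it came from block 1, where the difference was 1.91 on the log2 scale, against 0.11 in block 2 and -0.08 in block 3. Without pMCAO replicate 1, the fitted value was -0.06.

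**Figure D2:**
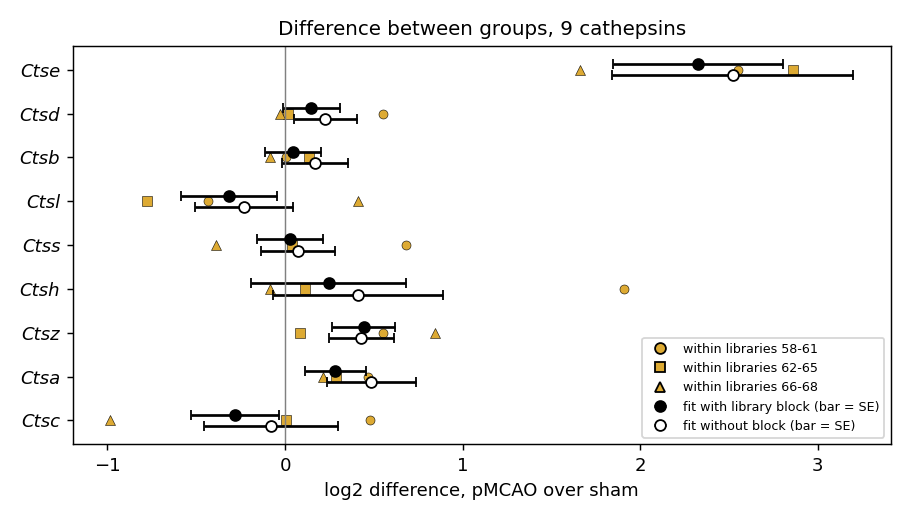
Differences between pMCAO and sham for the 9 cathepsins. The horizontal axis is the log2 difference, black points are the fit with the library block and white points the fit without it (bars are SE), and yellow points are the plain differences within libraries 58 to 61, 62 to 65 and 66 to 68. Ctse lies between 1.66 and 2.86 by every measure, and the fitted values of the other 8 lie between -0.32 and 0.49.

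The levels of the 9 genes were compared with each other after division by the length of their annotated exons, as CPM per kb, and this order used nothing from the group difference except for the place of Ctse. Median levels over the 12 samples were 23.7 CPM per kb for Ctsz, 22.3 for Ctss, 17.7 for Ctsd, 10.1 for Ctsb, 7.74 for Ctsa, 4.21 for Ctsc, 3.63 for Ctsl, 1.12 for Ctse and 1.05 for Ctsh. Ctse thus stood near the bottom of the family, far below Ctsd. Per kb its sham mean was 0.82 ± 0.812 CPM (SD, n = 7) and its pMCAO mean 3.52 ± 1.82 CPM (SD, n = 5).

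Neighbours in this order were compared within each sample on the scale of log2 (CPM per kb + 0.1), with two-sided exact sign-flip permutation tests adjusted over the 8 pairs. Ctss exceeded Ctsd by 0.35 ± 0.249 (SD) and in 11 of 12 samples (exact p = 0.000977, adjusted p = 0.00391). Ctsd exceeded Ctsb by 0.88 ± 0.289 in 12 of 12 (exact p = 0.000488, the smallest the test can give, adjusted p = 0.00391). Ctsa exceeded Ctsc by 0.92 ± 0.628 in 11 of 12 (exact permutation p = 0.00146, adjusted p = 0.00391), and Ctsl exceeded Ctse by 1.69 ± 1.88 in 10 of 12 (exact permutation p = 0.00928, adjusted p = 0.0186). This last order held in every sham sample and not in every pMCAO sample, since Ctse was above Ctsl in pMCAO replicates 2 (6.25 against 3.02 CPM per kb) and 4 (3.26 against 2.56). The mean of Ctsl was 4.46 CPM per kb in sham and 3.64 in pMCAO, against 0.82 and 3.52 for Ctse. Since Ctse was chosen for differing between the groups, the tests of its pairs depend on the mix of groups, and nothing is read from them. The neighbours themselves were taken from the medians of these same 12 samples.

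The other 4 pairs differed by less than their spread and did not pass. Ctsz and Ctss differed by 0.12 ± 0.385 (exact permutation adjusted p = 0.428), Ctsb and Ctsa by 0.28 ± 0.472 (exact permutation adjusted p = 0.0578), Ctsc and Ctsl by 0.11 ± 1.00 (exact permutation adjusted p = 0.716) and Ctse and Ctsh by 0.33 ± 1.38 (exact permutation adjusted p = 0.484). With the longest transcript as the length, or in sham samples alone, Ctsh stood above Ctse. The exon lengths used ran from 1358 nt for Ctss to 6489 nt for Ctsl, of which 1 long transcript alone gave 6168 nt, so the place of Ctsl rests on how that transcript is counted.

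**Figure D3:**
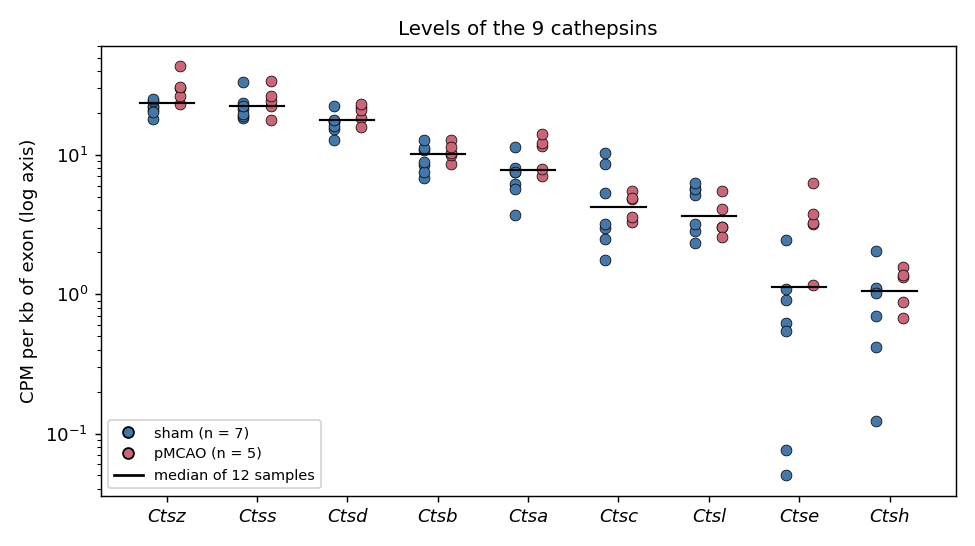
Level of each cathepsin in each sample. The vertical axis is CPM per kb of exon on a log axis, blue points are sham (n = 7), red points are pMCAO (n = 5) and black lines are medians of the 12 samples. The span from the lowest to the highest sample is 1.81-fold for Ctsd and 124-fold for Ctse, whose lowest sham samples hold 2 and 1 counts.

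Ctse was the most variable of the 9 genes over samples. Its highest level was 124 times its lowest, a ratio of 847 to 2 counts before scaling, whose exact 95% counting interval ran from 34.3 to 1030. The span was 16.6-fold for Ctsh, 5.84-fold for Ctsc, 3.85-fold for Ctsa, 2.7-fold for Ctsl, 2.37-fold for Ctsz, 1.91-fold for Ctss, 1.89-fold for Ctsb and 1.81-fold for Ctsd. On log2 CPM over the 12 samples, which share libraries, blocks and groups, the Pearson correlation with Ctse was 0.63 for Ctsh, 0.62 for Ctsc, 0.60 for Ctsz, 0.59 for Ctsb, 0.55 for Ctsd and 0.55 for Ctsa, and it was 0.03 for Ctss and -0.18 for Ctsl. After block means were subtracted it was 0.53 for Ctsz, 0.47 for Ctsd, 0.45 for Ctsb, 0.40 for Ctsh, 0.22 for Ctsc, 0.05 for Ctss, 0.04 for Ctsa and -0.245 for Ctsl. In the 8 samples outside block 1 it was 0.43 for Ctsz, 0.36 for Ctsa, 0.26 for Ctsd, 0.24 for Ctsb, 0.00 for Ctsc, -0.01 for Ctss, -0.04 for Ctsh and -0.52 for Ctsl. The high values of Ctsh and Ctsc thus rest on block 1, and those of Ctsb and Ctsd also fell without it.

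The 5 genes whose pattern over the 12 samples was most like that of Ctse were Eif3k, a subunit of a translation initiation factor (Pearson r = 0.96, Spearman rho = 0.91), Stard4, a carrier of cholesterol (r = 0.96, rho = 0.93), Fads2, a fatty acid desaturase (r = 0.95, rho = 0.84), Suclg2, a subunit of succinyl-CoA ligase (r = 0.94, rho = 0.84), and Pes1, a ribosome assembly factor (r = 0.93, rho = 0.94). No cathepsin was among them. Fads2 was scarce, with means of 0.572 CPM in sham and 1.75 CPM in pMCAO. Its lowest log2 CPM, -3.301 in sham replicates 1 and 3, is the value that the prior count gives a gene without counts. Ctse held 2 and 1 counts there, so these points of the correlation lie at or near the floor. After subtraction of block means the 5 had r between 0.91 and 0.96, and Fads2 and Stard4 stayed among the 5 highest of all genes. In the 8 samples outside block 1, r lay between 0.77 and 0.93, and 0 of the 5 stayed among the 5 highest.

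**Figure D4:**
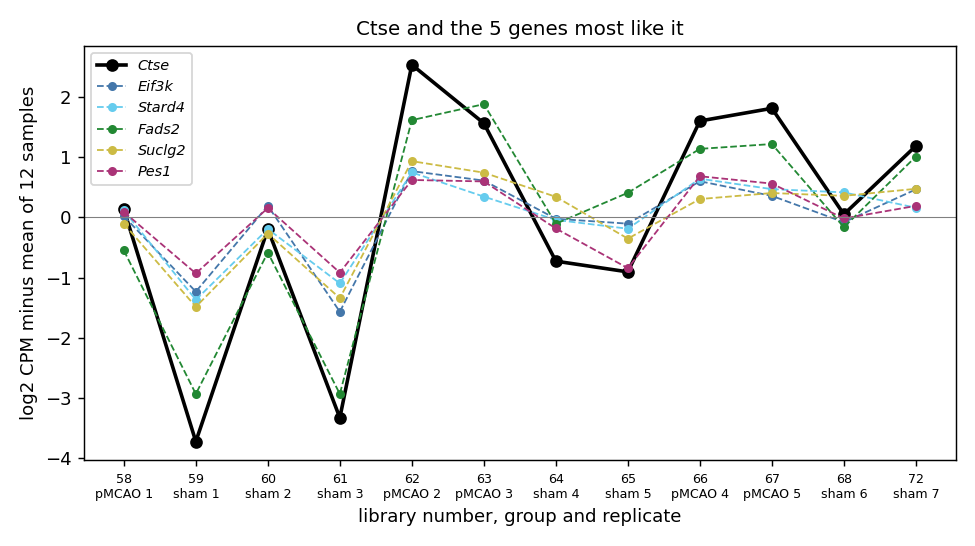
Ctse and the 5 genes most like it. The vertical axis is log2 CPM minus the gene's mean over the 12 samples, the horizontal axis is the library in order of its number with its group and replicate, and lines only join the points of a gene. Ctse is lowest in sham replicates 1 and 3 and highest in pMCAO replicate 2, and the other 5 genes are also lowest in sham replicates 1 and 3, with Pes1 also low in sham replicate 5.

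Genes that act with cathepsins were read from 8 lists, with 95 genes listed and 73 tested. Of the 73, limma-voom called 0 higher and 2 lower in pMCAO, and 9 had an unadjusted p under 0.05. A log2 fold change above 0 was found for 39 and below 0 for 34, with a median of 0.02 beside 0.01 over all genes. Among all genes, 0.325% were called, 12.7% had an unadjusted p under 0.05 and 51.3% had a log2 fold change above 0.

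Both called genes belonged to the list of lysosomal membrane proteins and the proton pump, of which 16 of 16 were tested, 8 on each side of 0. Slc17a5 encodes sialin, which exports sialic acid from the lysosome, and its levels were 191, 195, 166, 71, 86.2, 117 and 51.5 CPM in sham replicates 1 to 7 and 46.1, 38.5, 54.7, 18.5 and 20.6 CPM in pMCAO replicates 1 to 5. Only sham replicate 7 lay within the pMCAO range. It fell by 1.62 on the log2 scale (limma-voom adjusted p = 0.00717, SE 0.244). The study placed this gene on its own list from the same experiment, although its figure legend gives more pMCAO samples than the 5 here. The library blocks were also matched to the authors' fit, so neither the direction nor the adjusted p of Slc17a5 is independent evidence.

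Npc1 encodes the membrane protein that passes cholesterol out of the lysosome. It was 504, 430, 506, 125, 321, 256 and 162 CPM in sham replicates 1 to 7 and 246, 102, 149, 71.9 and 76.5 CPM in pMCAO replicates 1 to 5, so the groups overlapped through pMCAO replicates 1 and 3 and sham replicates 4 and 7. Its log2 fold change was -1.10 (limma-voom adjusted p = 0.0435, SE 0.227). Neither call was made without the library block, where the log2 fold change was -1.76 for Slc17a5 (limma-voom adjusted p = 0.124) and -1.35 for Npc1 (0.338). Over all refits the values stayed between -2.05 and -1.26 for Slc17a5 and between -1.56 and -0.84 for Npc1. Both were also lost without sham replicate 6 (0.0777 and 0.234) and without pMCAO replicate 1 (0.0872 and 0.133). Npc1 was also not called without sham replicate 1, 2, 3 or 5 or without pMCAO replicate 2, 4 or 5, where its adjusted p lay between 0.0522 and 0.117 in limma-voom.

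In the lists closest to the cathepsins, 0 genes were called. Of the other cathepsins 4 of 14 were tested, and all 4 had a log2 fold change above 0 with a median of 0.51, led by Ctsw, a cathepsin of cytotoxic lymphocytes, at 0.93 (limma-voom adjusted p = 0.524, SE 0.56). Ctsw stood at 0 in 2 sham samples and at 11.4 CPM in sham replicate 7. Ctso had a log2 fold change of 0.29 (SE 0.245). Of the other aspartic proteases 2 of 6 were tested, Bace1 at 0.32 (SE 0.246) and Bace2 at 0.25 (SE 0.322).

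Of the cystatins and other inhibitors of cathepsins 4 of 9 were tested. Cst7, the cystatin of lysosomes in immune cells, had a log2 fold change of 2.20 (limma-voom adjusted p = 0.262, SE 0.804), while the ratio of its mean CPM was 1.75 and its difference within block 1 was 0.10. Its levels were at most 4.01 CPM, and that highest value was in sham replicate 7. Cst3, the secreted cystatin C, had a log2 fold change of 0.21 (SE 0.197).

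The machinery that sorts and matures lysosomal enzymes was represented by 11 of 11 genes, 6 above and 5 below 0, with a median log2 fold change of 0.23. Lgmn, the asparaginyl protease that processes cathepsins to their mature forms, had a sham mean of 7.52 ± 2.51 CPM (SD, n = 7) and a pMCAO mean of 12.3 ± 3.61 CPM (SD, n = 5). In the fit its log2 fold change was 0.95 (limma-voom adjusted p = 0.201, SE 0.309), and pMCAO replicates 2 and 3 (8.86 and 8.51 CPM) lay within the sham range of 4.05 to 11.1 CPM. Glb1, the β-galactosidase that Ctsa protects, had a log2 fold change of 1.26 (limma-voom adjusted p = 0.247, SE 0.452) and was at 0 in sham replicate 2 and highest, at 9.54 CPM, in sham replicate 7.

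Of the other lysosomal hydrolases 26 of 27 were tested, 14 above and 12 below 0, with a median log2 fold change of 0.01. Idua, which degrades glycosaminoglycans, came nearest to a call at -1.15 (limma-voom adjusted p = 0.0536, SE 0.248), with a sham mean of 12.4 ± 3.98 CPM (SD, n = 7) and a pMCAO mean of 6.48 ± 2.47 CPM (SD, n = 5). The lysosomal transcription factors Tfe3 and Tfeb stood at 0.18 (SE 0.228) and -0.11 (SE 0.288), and 2 of 4 of that list were tested. Of the MHC class II genes, whose peptide loading in antigen-presenting cells depends on Ctss, 8 of 8 were tested, 2 above and 6 below 0, with Ifi30 at 0.32 (SE 0.179) and Cd74 at -0.84 (limma-voom adjusted p = 0.591, SE 0.58).

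**Figure D5:**
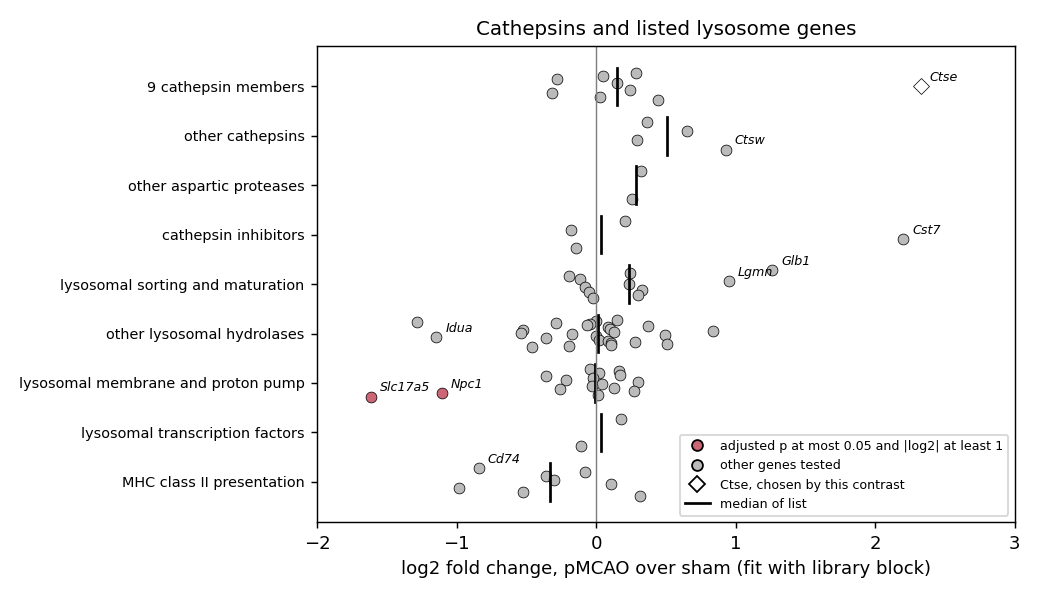
Log2 fold changes of the cathepsins and the listed lysosome genes. The horizontal axis is the fold change of pMCAO over sham in the fit with the library block, each point is 1 gene, black bars are list medians, red points passed the call rule and the white diamond is Ctse, which was chosen by this contrast. Slc17a5 (-1.62) and Npc1 (-1.10) are the called genes, and the other lists centre between -0.33 and 0.51.

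Cathepsins are also made by immune cells, so markers of other cells were summed per sample as CPM of the total count and compared by two-sided exact permutation tests over the sample labels, adjusted over the lists. The 7 T cell and intraepithelial lymphocyte markers summed to 215 ± 248 CPM (SD, n = 7, range 16.4 to 742) in sham and 251 ± 235 CPM (SD, n = 5, range 45.8 to 621) in pMCAO (exact p = 0.795, adjusted p = 0.884). On the TMM-scaled CPM used for single genes, Gzma (79.7 on average) and Ptprc (50.5) were the most abundant. Cd3e and Cd3g were each at 0 in 2 samples. The 7 myeloid markers present of 9 summed to 21.4 ± 19.4 CPM (SD, n = 7, range 7.82 to 62.9) in sham and 24.1 ± 16.2 CPM (SD, n = 5, range 9.36 to 50.7) in pMCAO (exact permutation p = 0.821). They were led by Fcer1g at 5.57 and Itgam at 4.62 in TMM-scaled CPM.

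The 4 B and plasma cell markers summed to 12.2 ± 7.9 CPM in sham and 12.9 ± 7.78 CPM in pMCAO (exact permutation p = 0.884), and 3 of 5 M cell markers to 30 ± 32.6 and 31.5 ± 13.2 CPM (exact permutation p = 0.864). The 10 epithelial markers summed to 10500 ± 4870 and 15000 ± 3070 CPM (exact permutation p = 0.106, adjusted p = 0.371), and 3 of 6 erythroid markers to 6.0 ± 4.7 and 2.34 ± 0.637 CPM (exact permutation p = 0.0909, adjusted p = 0.371). Of the stromal and endothelial list only Pecam1, and of the gastric surface cell list none of 4 genes, was in the table, and the rest were not analysed here.

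These sums carry no library block. In the fit with the block, which the Ctse value uses, 0 immune markers were called, but most stood above 0, against 51.3% of all genes. Of the 7 T cell and intraepithelial lymphocyte markers 6 were above 0, with a median log2 fold change of 0.75. An unadjusted limma-voom p under 0.05 was found for 3 of them, against 12.7% of all genes. Named after their values were seen, these were Cd8a at 1.43 (adjusted p = 0.167), Cd3g at 1.6 (adjusted p = 0.264) and Gzma at 0.75 (adjusted p = 0.284). The marker below 0 was Ptprc, among the most abundant of the list, at -0.34 (limma-voom adjusted p = 0.692, SE 0.309). Of the 6 myeloid markers tested 5 were above 0, with a median of 0.54, and of the 4 B and plasma cell markers 4 were, with a median of 0.48. The part of these cells in the Ctse difference was not tested, and by the study's methods the sort took live cells by EpCAM and 7AAD, with no CD45 stain named for it.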

How the data were processed

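RNA was measured in 12 samples (7 sham, 5 pMCAO), all matched by name to columns of one table, with 0 sample columns unmatched. According to the paper's methods, the authors removed ribosomal RNA by cleavage, sequenced paired ends, aligned with STAR to GRCm38 and assigned reads with featureCounts, which gave the deposited counts per gene. Whether strand was used was not stated. The deposited CPM columns are those counts scaled to the column total. The deposited log2 columns (fold change and average expression) and p-value and FDR columns hold the authors' own comparison and were not used.

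Counts were filtered with filterByExpr (minimum count 10), which removed 1393 genes, scaled by TMM (edgeR 4.0.16) and fitted by limma-voom (limma 3.58.1 in R 4.3.3) on group and library block. Benjamini-Hochberg adjustment ran over all 14462 genes, and a call needed an adjusted p no higher than 0.05 and a log2 fold change of 1 or more in size. The study corrected for the day of tissue collection, which the labels do not give. The 4 blocks of library numbers came from earlier work on these data, which matched them to the authors' fit, and stand in for it. The fit was also run on simulated data drawn with these same 4 blocks, which cannot test the choice of blocks. P-values measure the spread between samples labelled as biological replicates.

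Levels between genes were divided by the union of exons in GENCODE M21. Neighbours were compared with 4096 sign flips and a pseudocount of 0.1 CPM per kb. Shares carry 95% Wilson intervals. log2 CPM used a prior count of 2. Totals of 7418730 to 31925579 counts put 3 counts at 0.0692 to 0.724 CPM.

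The members and gene lists were chosen with earlier results of these data known. Named genes were the 9 cathepsins, the 5 genes with the highest Pearson correlation with Ctse, every called gene of each pathway list or else the 2 with the smallest p, and the 2 most abundant genes of marker lists. Values of 1 gene that this rule names are not reported here. Alternatives were no block, library 72 joined to block 3, edgeR, DESeq2 (1.42.0), limma-trend, RLE factors, no filter, mitochondrial ribosomal RNA removed, replicate number as block (alone and with the library block), block 1 left out and each replicate left out.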

Additional observations from a re-analysis of the deposited data

Results flagged for a closer look

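Ctss in the sham group had 1 sample far from the others. Sham replicate 6 stood at 5.51 log2 CPM and the other sham samples between 4.65 and 4.99, so that the gap to the nearest took 0.602 of the whole range. It was the only such sample among 20 sets of values examined (each of the 9 cathepsins and the Ctse share of their counts, in each group), and chance gives about 1 in 20.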

How the results depend on the processing

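Over the 24 alternatives the log2 fold change of Ctse ran from 1.97 (library 72 joined to block 3) to 4.22 (replicate block with library block). With each sample left out in turn it ran from 2.09 to 2.92. Since Ctse was chosen for differing in these same samples, its sign over these refits is a description and no support. None of the 8 relatives was called in any of the 23 refits, where the lowest adjusted p of each lay between 0.104 and 0.537. Over all alternatives Ctsa, Ctsd and Ctsz stayed above 0 and Ctsl below 0, but with 1 sample left out Ctsa ran from 0.188 to 0.374, Ctsd from 0.0074 (without pMCAO replicate 1) to 0.242, Ctsz from 0.237 to 0.572 and Ctsl from -0.733 to -0.122. The sign turned for Ctsb without sham replicate 5 (-0.0883), for Ctsc without sham replicate 6 (0.24), for Ctsh without pMCAO replicate 1 (-0.0558) and with block 1 left out (-0.0362), and for Ctss without sham replicate 2 (-0.00375), pMCAO replicate 1 (-0.166) or pMCAO replicate 3 (-0.0269) and with block 1 left out (-0.15). With 1 sample left out, Ctsb ran from -0.0883 to 0.116, Ctsc from -0.552 to 0.24, Ctsh from -0.0558 to 0.608 and Ctss from -0.166 to 0.27.

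Of all genes, 47 were called, against 0 without the block, 21 by edgeR, 26 by limma-trend, 115 by DESeq2 and 0 with block 1 left out (1421 at an unadjusted p under 0.05), and between 4 (without sham replicate 6) and 86 (without pMCAO replicate 3) with 1 sample left out. The 2 called lysosome genes became 3 by DESeq2 and with RLE factors, 0 without the block, 1 by edgeR, 1 by limma-trend (Slc17a5 in both) and 0 with block 1 left out, and between 0 and 2 with 1 sample left out. The cause was not tested. The genes most like Ctse kept 2 of 5 after block means were subtracted and 0 of 5 with block 1 left out. In the order of levels 4 of 8 pairs passed with the longest transcript and 3 with the principal transcript (chosen after seeing the data) or sham samples alone.

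With the replicate number of the labels as a block and no library block, 243 genes were called and Ctsc turned to 0.519. The numbers do not pair the samples, since deviations of same-numbered samples correlated at 0.398, -0.239, -0.163, 0.163 and 0.0823. With the replicate block and the library block together, 28 genes were called, 6 of them among the 47, and 1 of the listed lysosome genes (Slc17a5). In that fit the group difference rests on the replicate 1 pair alone, which shares a library block, and Ctse was at 4.22 (SE 1.77), Ctsh at 3.33 and Ctsc at 0.9.

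Differences of marker sums (pMCAO minus sham, CPM) kept their sign for epithelial and erythroid markers and turned for the other lists. With TMM they were -5.96 for T cells, -2.36 for myeloid, -3.38 for B cells, -0.186 for stromal and -0.829 for M cells, and with block 1 left out (chosen after seeing the data) -36.9 for T cells, -1.31 for myeloid, -0.255 for stromal and -8.51 for M cells. With 1 sample left out they ran from -55.9 to 124 for T cells, -3.98 to 9.59 for myeloid, -1.66 to 3.23 for B cells, -0.316 to 0.916 for stromal and -2.11 to 13.1 for M cells. Ctse rests on few counts in sham replicates 1 and 3, which hold 2 and 1 in totals of 15852161 and 7418730.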

Other observations

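Sham replicate 7, the only sample of its library block, had the highest Ctse of the sham group (7.72 CPM) and the highest level of all 12 samples for Ctsh (9.25 CPM), Ctsw (11.4 CPM), Cst7 (4.01 CPM) and Glb1 (9.54 CPM). It was not the highest for Ctsd (41.8 CPM), Ctsb (53.5 CPM) or Ctsz (36.5 CPM). These genes were set side by side after their values were seen, and no test was run. In the fit with the library block this sample carries no weight in the difference between groups, whereas in the means it counts as 1 of 7 sham samples.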
